A study of Mus musculus with 20 samples.

Results

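The endoplasmic reticulum (ER) chaperones and secretory pathway machinery were described as 51 genes, chosen as the rows of both deposited count tables whose symbol was on a list of 51. The list held 6 sensors and transcription factors of the unfolded protein response, 14 chaperones and foldases of the ER lumen, 7 genes of ER-associated degradation, 14 of translocation and processing at the ER membrane, and 10 of the transport coat. All 51 were in both tables, among 11746 gene entries for GFP-high cells and 11779 for GFP-low cells, of which 11296 genes were held by both. RNA was sequenced from small-intestinal crypt cells sorted as EpCAM+ CD45- CD31- TER119- 7AAD-, that is, live epithelial cells without blood or endothelial surface markers. The mice were C57BL/6J, 8 weeks old, and every one carried Lgr5-GFP, a reporter of the crypt stem cell gene Lgr5, so no group was free of the reporter. Their genotype was Itgb7+/+, called WT here, or Itgb7-/-, called KO, where the gene codes for integrin beta 7, known from lymphocytes that home to the gut. By the labels the GFP-high gate holds the stem cells and the GFP-low gate the TA (transit-amplifying) cells. The 4 groups held 5 libraries each, from WT mice 1, 3, 6, 7 and 8 and from KO mice with the numbers 2 to 6. The labels give these numbers and no other account of the replicates, so p-values measure only the spread between these libraries.

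Library totals ran from 20900404 to 27838392 counts. The summed level of 6 crypt stem cell markers was between 0.335% and 0.497% of counts in WT GFP-high libraries and between 0.0281% and 0.0773% in WT GFP-low libraries. The markers include Lgr5, the gene of the reporter behind the gates, so a difference was built into the sort. No list of TA cell markers was used, and the identity of the GFP-low cells rests on the labels. All 6 epithelial markers were present in every group. Of 9 plasma and B cell markers the tables held Sdc1 in both populations and Cd79b in GFP-low cells, and their sum stayed at or below 0.0122% in every library. Of 8 leukocyte markers the tables held Cd68 and Lyz2, the latter also made by Paneth cells, and in GFP-high cells Cd3g. The remaining plasma and B cell markers, Jchain and Mzb1 among them, were not analysed here, and neither was Itgb7 itself, so the genotypes rest on the labels.

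Proteins bound for secretion or for membranes enter the ER through the Sec61 translocon, lose their signal peptide to the signal peptidase complex, and fold with the help of chaperones such as Hspa5 (BiP) and the protein disulfide isomerases. Folded cargo leaves in vesicles shaped by the COPII coat, in which Sec23 and Sec24 form the inner layer and Sec13 and Sec31 the outer layer, while misfolded protein is passed back to the cytosol and degraded. When unfolded protein builds up, the sensors Ern1 (IRE1 alpha), Ern2 (IRE1 beta) and Atf6, together with the kinase PERK, start the unfolded protein response through the transcription factors Xbp1, Atf6 and Atf4. In the small intestine, Paneth cells and goblet cells are the crypt cells known for heavy secretion, and Ern2 is known as a form of IRE1 of gut and airway epithelium.

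Promoter sequence was taken for the members because many of them are textbook targets of these factors. RefSeq sequence on GRCm38.p6, from 250 bases before to 50 after the transcript start, was matched for 42 of the 51 members. No entry was matched for Atf6, Derl1, Ern2, Hyou1, Manf, Sec11c, Sec61a1, Spcs3 and Ssr2. Both strands were searched for 4 motifs. The ER stress response element was CCAAT, then 9 bases of any kind, then CCACG. The ER stress response element II was ATTGG, then 1 base, then CCACG. The unfolded protein response element was TGACGTGG, and the C/EBP-ATF element was TGATG, then 1 base, then AA. No matches of different motifs overlapped. The stretches below show the matches in capitals, from 20 bases before to 20 after where the stretch before the start allowed it, read 5′ to 3′ on the strand of the gene. Where the match lay on the other strand, the capitals read CGTGG and ATTGG. They were chosen to show the master chaperone Hspa5, the lectin chaperones Canx and Calr, a foldase, 2 degradation genes with the first element, and 1 gene each with element II and the unfolded protein response element before the start.
Hspa5, chr2:34772005-34772063, plus strand: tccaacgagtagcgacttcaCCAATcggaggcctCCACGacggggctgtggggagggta
Canx, chr11:50325780-50325838, minus strand: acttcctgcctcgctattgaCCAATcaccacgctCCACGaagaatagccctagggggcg
Calr, chr8:84847055-84847113, minus strand: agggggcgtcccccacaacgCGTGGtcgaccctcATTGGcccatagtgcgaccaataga
Pdia6, chr12:17266471-17266529, plus strand: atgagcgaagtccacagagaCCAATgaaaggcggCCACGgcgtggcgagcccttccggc
Syvn1, chr19:6046512-6046570, plus strand: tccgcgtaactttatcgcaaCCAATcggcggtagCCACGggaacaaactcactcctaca
Derl3, chr10:75893222-75893280, plus strand: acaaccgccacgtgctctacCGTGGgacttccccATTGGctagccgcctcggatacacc
Herpud1, chr8:94386357-94386407, plus strand: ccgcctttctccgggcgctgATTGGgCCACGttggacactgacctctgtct
Sec24d, chr3:123267450-123267495, plus strand: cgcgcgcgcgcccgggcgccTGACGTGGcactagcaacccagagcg

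The ER stress response element was found in 9 of the 42 members with sequence, or 21.4%, against 0.137% of 27025 genes with a window of the same length. The matches divided by role. Of the 12 chaperones and foldases with sequence, 7 held the element, namely Hspa5, Hsp90b1, Calr, Canx, Pdia6, Dnajc3 and Creld2, and Hsp90b1 held it at 2 places. Of the 6 degradation genes with sequence, Derl3 and Syvn1 held it. None of the 10 translocation and processing genes, the 10 coat genes and the 4 sensors and factors with sequence did. Element II was found in Herpud1, whose product ties degradation factors together at the ER membrane, and in the co-chaperone gene Dnajb11, against 0.0444% of genes. The unfolded protein response element was found in Sec24d and Sec23a, both COPII inner coat genes, against 0.714% of genes, and the C/EBP-ATF element in Herpud1 alone, against 4.51% of genes. A match describes letters in the window and is not a binding site shown in these cells. Since many members are textbook targets of these factors, shares above those of all genes were to be foreseen, and no test was run on them.

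**Figure D1:**
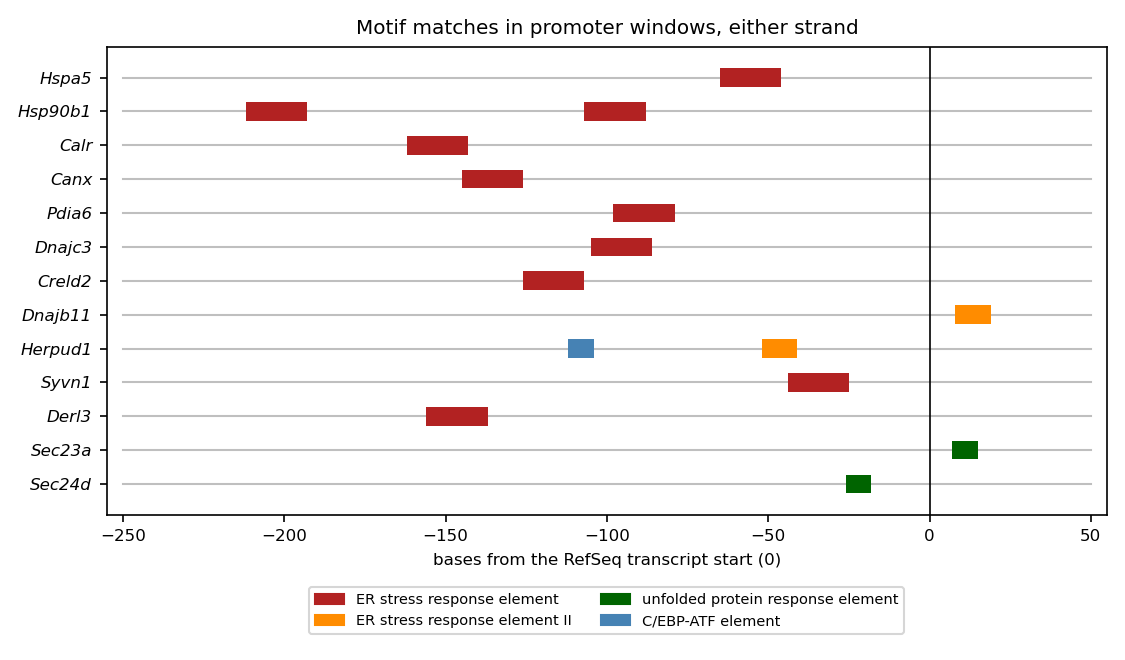
Matches of 4 motifs in the promoter windows of the 13 members that held any. The x axis is the distance in bases from the RefSeq transcript start, grey lines are the windows, and coloured blocks are matches on either strand. The 11 blocks in red and orange that lie before the start belong to chaperones, foldases and degradation genes, and the green blocks to Sec24d and Sec23a.

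Nearly all of the machinery stood higher in GFP-low than in GFP-high cells. In WT mice 45 of the 51 members passed the test as higher and 0 as lower, where 43.4% of the 11293 genes tested passed in either direction, 22% as higher and 21.4% as lower. In KO mice 46 members passed as higher and 1 as lower, where 50.5% of 11294 genes passed, 26.2% as higher and 24.4% as lower. The median log2 fold change of the members was 0.88 in WT and 0.94 in KO mice, beside -0.01 over all genes in each. The same 44 members passed as higher in both genotypes. These fits took the GFP-high and GFP-low libraries of a mouse as independent. With the mouse as a block, 48 members in WT and 47 in KO mice passed as higher, where 2925 and 3310 of all genes did. In these bulk samples fewer cells of a type and less RNA per cell cannot be told apart. Summed over the members, levels scaled with TMM factors came to 0.694% ± 0.0442 (SD, n = 5) of the scaled total in WT GFP-high libraries. In WT GFP-low libraries they came to 1.26% ± 0.21, and in the KO libraries to 0.582% ± 0.0221 and 1.10% ± 0.101. No GFP-low library fell within the range of the GFP-high libraries of its genotype. These are not shares of raw counts, whose gap was smaller. The TMM factors ran from 1.035 to 1.141 in WT GFP-high and from 0.7294 to 0.9757 in WT GFP-low libraries. In KO mice they ran from 1.088 to 1.147 and from 0.8985 to 1.07.

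The same direction was seen mouse by mouse. Within each mouse the level in CPM, a library's counts scaled to a common total with TMM factors over all 20 libraries, was higher in GFP-low than in GFP-high cells in all 10 mice for 45 of the 51 members, against 21.7% of all genes. The exceptions were Syvn1, Derl3, Sec63 and Sec11a with 9 mice, Sec62 with 7 and Sec24b with 1. Taken as whole groups, 39 members in WT and 45 in KO mice had every GFP-low library above every GFP-high library, against 15% and 18.1% of all genes. The unfolded protein response, translocon and coat genes are taken apart below.

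**Figure D2:**
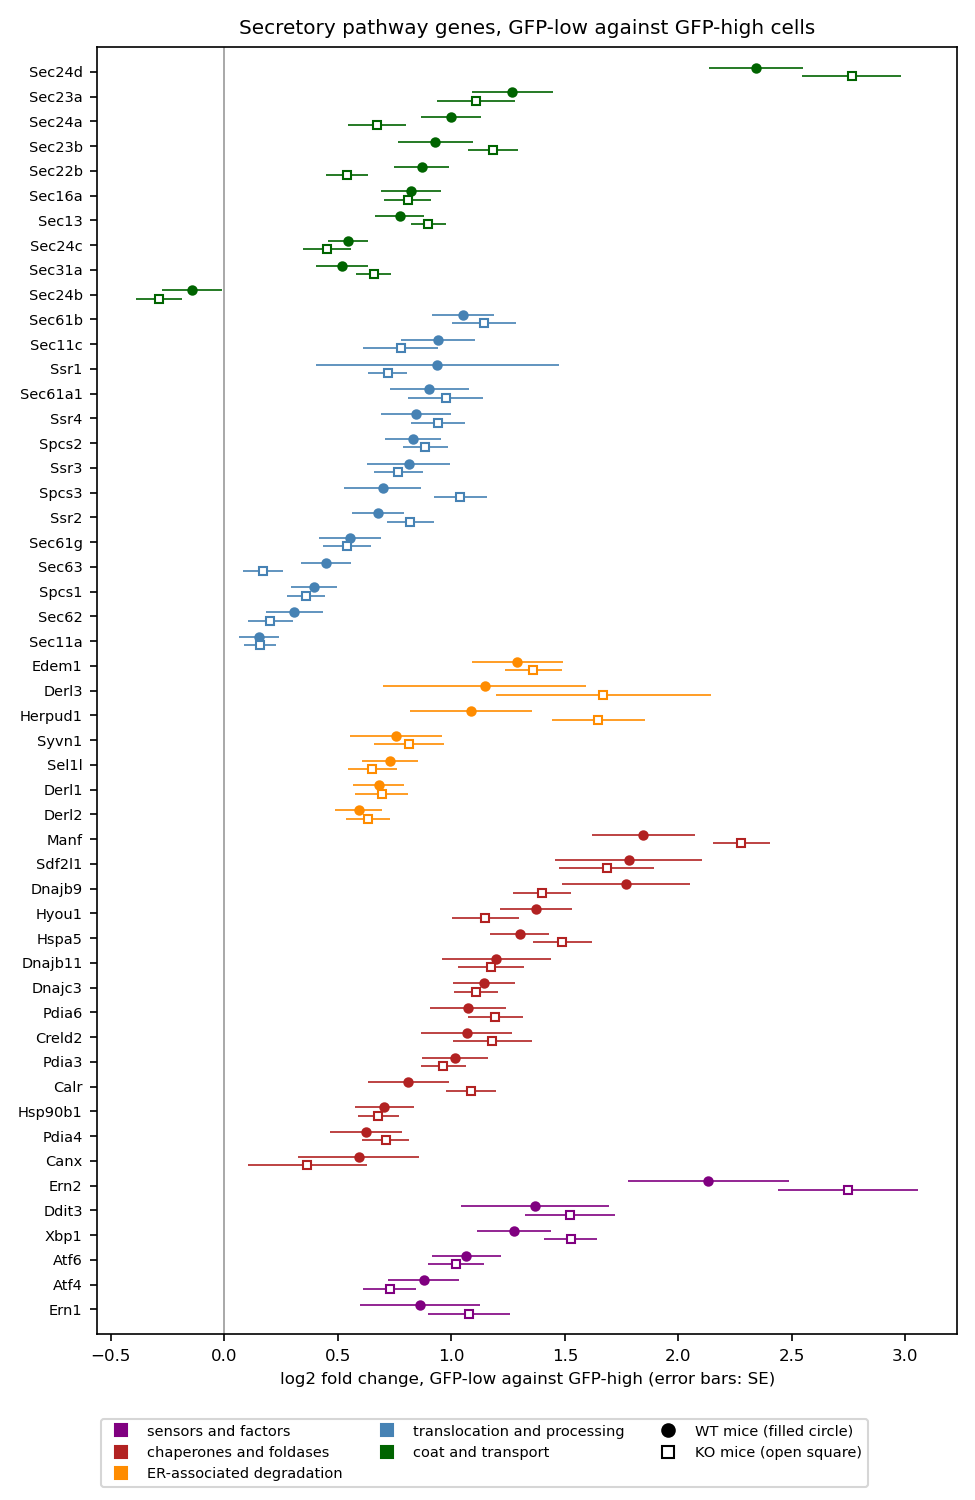
Log2 fold change of GFP-low against GFP-high cells (x axis, error bars SE) for the 51 members, coloured by role and sorted within each role, with filled circles for WT and open squares for KO mice. All members but Sec24b lie to the right of 0 in both genotypes, and Sec24d, Ern2 and Manf lie farthest.

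All 6 sensors and transcription factors of the unfolded protein response rose in both genotypes, with a median log2 fold change of 1.17 in WT and 1.30 in KO mice. Ern2 moved most. It was at 71.9, 74.99, 37.4, 21.8 and 40.9 CPM in the GFP-high libraries of WT mice 1, 3, 6, 7 and 8, and at 283, 131, 161, 157 and 350.5 CPM in their GFP-low libraries. In mice 2 to 6 of the KO genotype it was at 21.04, 31.8, 28.8, 54.9 and 39.2 CPM in GFP-high and 91.4, 282, 253, 311 and 234 CPM in GFP-low cells. The groups did not overlap in either genotype, and the log2 fold change was 2.13 ± 0.35 (SE, adjusted p = 0.000472) in WT and 2.75 ± 0.31 (adjusted p = 7.25e-06) in KO mice. Its relative Ern1, the IRE1 form found in most tissues, was at 4.11, 3.296, 4.48, 1.895 and 2.35 CPM in WT GFP-high and 8.33, 5.98, 5.58, 4.22 and 5.13 CPM in WT GFP-low libraries. The WT groups of Ern1 overlapped, since the GFP-low library of mouse 7 lay below the GFP-high library of mouse 6. In KO mice Ern1 was at 2.97, 2.14, 3.34, 2.88 and 3.39 CPM in GFP-high and 5.29, 5.82, 7.65, 6.21 and 5.897 CPM in GFP-low cells, with no overlap. Its log2 fold change was 0.86 ± 0.26 in WT (adjusted p = 0.0185) and 1.08 ± 0.18 in KO mice. Without the GFP-low library of mouse 1 the WT change did not pass (0.70, adjusted p = 0.0519). Levels of different genes were compared per kilobase of transcript, where Ern2 was at 16.95 and Ern1 at 0.465 CPM per kilobase in WT GFP-high cells.

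Xbp1, the factor whose messenger is spliced by IRE1, was at 82.6, 60.3, 56.1, 57.6 and 71.8 CPM in WT GFP-high and 182, 128, 159, 119.8 and 207 CPM in WT GFP-low libraries. Its KO libraries were at 63.2, 44.8, 51.9, 55.9 and 53.9 CPM in GFP-high and 129, 145, 154, 192 and 149 CPM in GFP-low cells. The groups did not overlap in either genotype, and it rose by 1.28 ± 0.16 and 1.53 ± 0.12 on the log2 scale. The gene counts do not separate the spliced from the unspliced form. Atf6, a sensor that is cut to release its own transcription factor, was at 11.2, 7.69, 10.3, 9.58 and 8.63 CPM in WT GFP-high and 20.4, 18.1, 17.2, 17.3 and 26.4 CPM in WT GFP-low libraries. KO libraries held Atf6 at 8.83, 9.27, 10.5, 9.46 and 9.04 CPM in GFP-high and 15.2, 21.8, 20.8, 16.7 and 20.3 CPM in GFP-low cells. It changed by 1.07 ± 0.15 in WT and 1.02 ± 0.12 in KO mice, without overlap in either.

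Atf4, the factor made when PERK and related kinases slow translation, was the most abundant of the 6 per kilobase, at 151 CPM per kilobase in WT GFP-high cells. It was at 308, 275, 303, 198 and 218 CPM in WT GFP-high and 518, 529, 492, 341 and 512 CPM in WT GFP-low libraries, and the low value among the latter belonged to mouse 7. KO libraries held Atf4 at 323, 269, 332, 258 and 219.7 CPM in GFP-high and 410.5, 434, 499.8, 498 and 456 CPM in GFP-low cells, without overlap. It rose by 0.88 ± 0.16 in WT and 0.73 ± 0.12 in KO mice. Ddit3 (CHOP), a target of Atf4 tied to cell death under lasting stress, was at 24.8, 16.7, 27.2, 8.91 and 13.2 CPM in WT GFP-high and 49.2, 52.03, 68.9, 20.9 and 42.9 CPM in WT GFP-low libraries. These groups overlapped, because mouse 7 was lowest in both populations, yet the ratio of GFP-low to GFP-high within a mouse ran from 1.98 to 3.25 in WT mice. KO libraries of Ddit3 were at 18.8, 13.96, 17.9, 12.4 and 12.2 CPM in GFP-high and 37.6, 38.6, 67.7, 32.2 and 38.4 CPM in GFP-low cells. Those did not overlap, and the log2 fold changes were 1.37 ± 0.33 and 1.52 ± 0.20. Exons of Ddit3 overlap those of other genes over 10.9% of their length, partly on the other strand, and the strand of the libraries is not given in the sources used here.

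Of the 14 chaperones and foldases, 13 rose in each genotype, with a median log2 fold change of 1.11 in WT and 1.16 in KO mice, and Canx was the one that did not pass. Hspa5, which binds unfolded chains and holds the sensors inactive, went from 520.5 ± 37.4 (SD, n = 5) to 1283 ± 234 CPM in WT and from 389 ± 36.5 to 1082 ± 204 CPM in KO mice, a change of 1.30 ± 0.13 and 1.49 ± 0.13. The largest changes were in Manf, Sdf2l1 and Dnajb9. Manf encodes a small secreted protein that binds Hspa5. Its level was 66.9, 58.04, 57.5, 54.3 and 85.7 CPM in WT GFP-high and 204, 178, 203, 174 and 399 CPM in WT GFP-low libraries, the last value, from mouse 8, standing well above the other four. The KO libraries held 47.05, 31.2, 40.6, 37.6 and 41.2 CPM in GFP-high and 158, 170.3, 192, 223 and 207 CPM in GFP-low cells. Manf thus stood apart between the populations in both genotypes, by 1.84 ± 0.23 (adjusted p = 5.22e-05) and 2.28 ± 0.13 (adjusted p = 3.88e-08). Exons of Manf overlap those of other genes over 9.25% of their length. Such overlap was larger for Spcs1 (16.3%), Hsp90b1 (15.7%), Ssr2 (12.8%) and Sec62 (11.7%), in each at least partly on the other strand.

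Sdf2l1, a partner of Hspa5 and its co-chaperones, was at 6.65, 3.99, 3.92, 4.72 and 6.75 CPM in WT GFP-high and 15.7, 11.6, 16.1, 10.3 and 36.02 CPM in WT GFP-low libraries, with mouse 8 again the highest. In its KO libraries it was at 6.38, 3.15, 3.73, 6.396 and 5.59 CPM in GFP-high and 17.5, 12.5, 13.2, 19.6 and 17.9 CPM in GFP-low cells. The groups overlapped in neither genotype, and the changes were 1.78 ± 0.32 and 1.68 ± 0.21. Dnajb9 (ERdj4), a co-chaperone that feeds both folding and degradation, was at 11.1, 9.89, 12.8, 6.15 and 9.14 CPM in WT GFP-high and 21.9, 23.8, 47.3, 22.4 and 51.6 CPM in WT GFP-low libraries. The WT GFP-low libraries of mice 6 and 8 lay well above the other three. In KO mice Dnajb9 was at 8.99, 8.47, 9.57, 6.55 and 7.01 CPM in GFP-high and 22.01, 18.6, 23.6, 20.96 and 20.8 CPM in GFP-low cells, a narrower range, and the changes were 1.77 ± 0.28 and 1.40 ± 0.13.

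The remaining chaperones rose by between 0.63 and 1.37 in WT mice. Hyou1, an exchange factor for Hspa5, changed by 1.37 ± 0.16, the co-chaperones Dnajb11 and Dnajc3 by 1.20 ± 0.24 and 1.14 ± 0.14, and Creld2 by 1.07 ± 0.20. Of the disulfide isomerases, Pdia6 changed by 1.07 ± 0.17, Pdia3 by 1.02 ± 0.14 and Pdia4 by 0.63 ± 0.16. Hsp90b1 (GRP94), the ER form of HSP90, changed by 0.70 ± 0.13 and the lectin chaperone Calr by 0.81 ± 0.18. The changes in KO mice ran from 0.68 for Hsp90b1 to 1.19 for Pdia6 in these 9 genes. Members with and without an ER stress response element of either kind had close medians. Among chaperones and degradation genes with sequence, the median change in WT mice was 1.07 for the 11 with a match and 1.02 for the 7 without, and in KO mice 1.17 and 0.97.

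**Figure D3:**
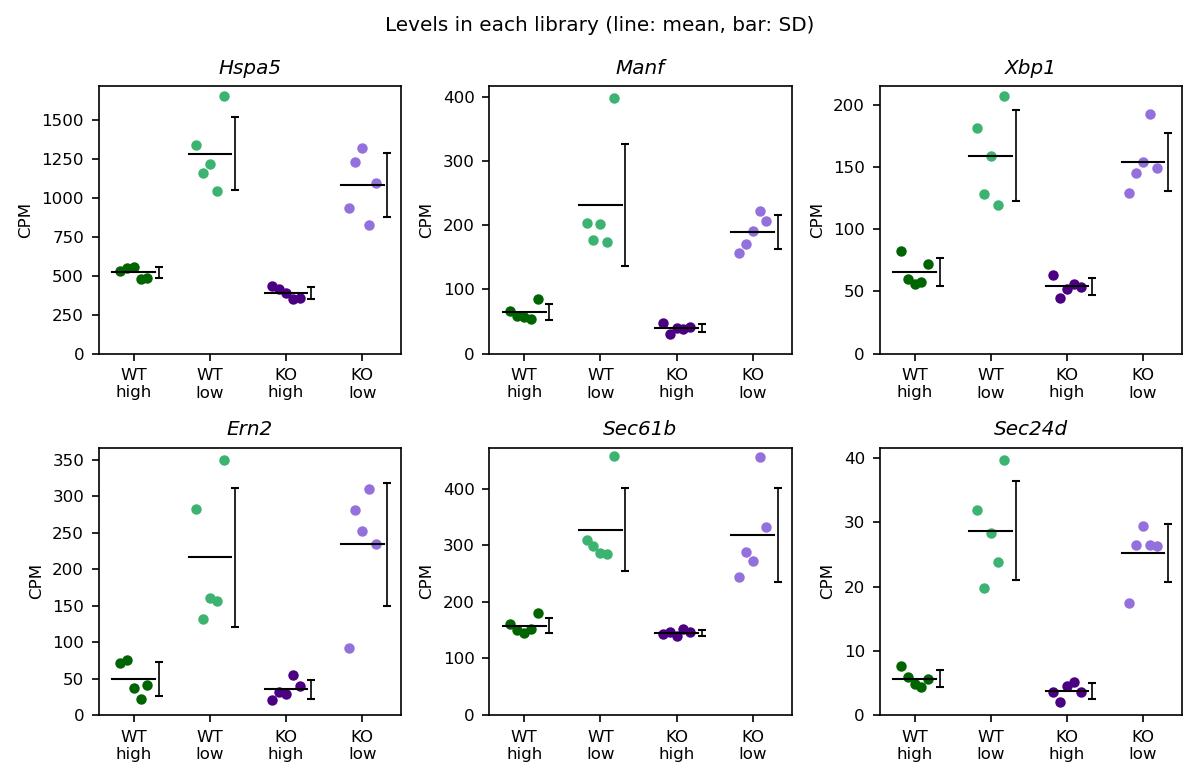
Levels of 6 members in CPM (y axes, linear, from 0) in each of the 5 libraries of the 4 groups, with the mean as a line and the SD as a bar. GFP-low libraries lie above GFP-high libraries of the same genotype in all 6 panels, and WT GFP-high lies above KO GFP-high for Hspa5 and Manf.

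Of the 7 genes of ER-associated degradation, 6 rose in WT and all 7 in KO mice, with a median log2 fold change of 0.76 and 0.81. Edem1, a lectin-like factor that hands misfolded glycoproteins to degradation, was at 24.5, 15.6, 17.6, 14.7 and 20.6 CPM in WT GFP-high and 39.4, 40.99, 39.7, 36.5 and 70.8 CPM in WT GFP-low libraries, without overlap. KO libraries of Edem1 were at 20.1, 15.8, 17.8, 15.2 and 15.1 CPM in GFP-high and 33.2, 43.5, 42.1, 51.6 and 43.3 CPM in GFP-low cells, again without overlap, and the changes were 1.29 ± 0.20 and 1.36 ± 0.13. Herpud1 was at 219.8, 240.2, 316, 455 and 544 CPM in WT GFP-high and 624, 618, 592, 731 and 1205 CPM in WT GFP-low libraries. KO libraries of Herpud1 were at 112, 187, 156, 175 and 179.8 CPM in GFP-high and 307, 606, 698, 409 and 494 CPM in GFP-low cells. It rose by 1.09 ± 0.27 and 1.65 ± 0.20, and the groups overlapped in neither genotype.

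Derl3, a derlin of secretory cells, was scarce, at 1.27, 1.02, 1.04, 0.998 and 2.47 CPM in WT GFP-high and 3.199, 0.976, 1.73, 2.76 and 6.46 CPM in WT GFP-low libraries. In KO mice it was at 0.923, 0.503, 0.307, 1.197 and 1.55 CPM in GFP-high and 1.300, 2.38, 1.52, 3.005 and 6.16 CPM in GFP-low cells. The groups overlapped in both genotypes, and the change was 1.15 ± 0.45 (adjusted p = 0.0547) in WT and 1.67 ± 0.47 (adjusted p = 0.00917) in KO mice. With the mouse as a block the WT change passed (1.03, adjusted p = 0.00966). The ubiquitin ligase Syvn1 (HRD1) changed by 0.76 ± 0.20 in WT and 0.81 ± 0.15 in KO mice and its partner Sel1l by 0.73 ± 0.12 and 0.65 ± 0.11. Derl1 and Derl2, the derlins found in most tissues, changed by 0.68 ± 0.11 and 0.59 ± 0.10 in WT mice.

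Of the 14 translocation and processing genes, 11 rose in each genotype, with a median log2 fold change of 0.75 in WT and 0.77 in KO mice. Within the translocon, the channel subunit Sec61a1 changed by 0.90 ± 0.17 in WT and 0.97 ± 0.16 in KO mice. The small subunit Sec61g changed by 0.55 ± 0.14 and 0.54 ± 0.11. Sec61b, the third subunit, was at 162, 151, 145, 152 and 181 CPM in WT GFP-high and 309.9, 298, 287, 285 and 457 CPM in WT GFP-low libraries. KO libraries of Sec61b were at 143, 146, 139, 153 and 146 CPM in GFP-high and 244, 289, 272, 456 and 332 CPM in GFP-low cells. The groups overlapped in neither genotype, and the changes were 1.05 ± 0.14 and 1.14 ± 0.14. The post-translational partners of the channel moved less: Sec63 changed by 0.45 ± 0.11 in WT (adjusted p = 0.00575) and 0.17 ± 0.09 in KO mice (adjusted p = 0.128), and Sec62 by 0.31 ± 0.13 and 0.20 ± 0.10 (adjusted p = 0.0642 and 0.108). Sec62 was higher in GFP-low cells in 7 of 10 mice.

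Of the translocon-associated protein subunits, Ssr2, Ssr3 and Ssr4 changed by 0.68 ± 0.12, 0.81 ± 0.18 and 0.85 ± 0.15 in WT and by 0.82 ± 0.10, 0.77 ± 0.11 and 0.94 ± 0.12 in KO mice. Ssr2 and Ssr4 were the members highest per kilobase in WT GFP-high cells, at 552 and 424 CPM per kilobase. Of the signal peptidase, the subunits Spcs1, Spcs2 and Spcs3 changed by 0.39 ± 0.10, 0.83 ± 0.12 and 0.70 ± 0.17 in WT mice. Its catalytic subunit comes in alternative forms. Sec11c was at 90.5, 82.8, 76.8, 67.4 and 86.9 CPM in WT GFP-high and 149, 162, 124, 116 and 225 CPM in WT GFP-low libraries. KO libraries of Sec11c were at 67.5, 87.7, 95.4, 92.9 and 80.7 CPM in GFP-high and 86.1, 143, 171, 172 and 148 CPM in GFP-low cells, and only the KO groups overlapped. It rose by 0.94 ± 0.16 and 0.78 ± 0.16, whereas Sec11a changed by 0.15 ± 0.09 (adjusted p = 0.178) and 0.16 ± 0.07 (adjusted p = 0.0793). Per unit of transcript length, Sec11c made up 33.5% ± 3.68 (SD, n = 5) of the pair in WT GFP-high and 46.0% ± 5.26 in WT GFP-low libraries (exact permutation test, two-sided, p = 0.00794, adjusted p = 0.0529 over 40 share tests). That is the smallest p that 5 against 5 libraries allow. In KO mice its share was 34.7% ± 3.75 and 44.5% ± 6.62 (exact permutation p = 0.0397, adjusted p = 0.144), and leaving out any of 5 KO libraries, GFP-high of mouse 2 or GFP-low of mice 3 to 6, took the unadjusted p above 0.05 (0.0635 to 0.0794). No share test passed after adjustment.

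Of the 10 coat genes, 9 rose in each genotype, with a median log2 fold change of 0.85 in WT and 0.74 in KO mice. Sec24d, 1 of 4 cargo adaptors of the COPII coat, changed more than any other member. It was at 7.67, 5.97, 4.84, 4.32 and 5.53 CPM in WT GFP-high and 31.9, 19.8, 28.3, 23.8 and 39.8 CPM in WT GFP-low libraries. The KO libraries were at 3.57, 1.97, 4.48, 5.16 and 3.52 CPM in GFP-high and 17.5, 26.5, 29.5, 26.4 and 26.2 CPM in GFP-low cells. Without overlap in either genotype, it rose by 2.34 ± 0.21 (adjusted p = 4.53e-06) and 2.76 ± 0.22 (adjusted p = 3.78e-07), a fold of 5.07 and 6.79. Sec24a was at 13.6, 13.1, 14.4, 13.9 and 11.6 CPM in WT GFP-high and 20.2, 32.1, 29.7, 23.9 and 26.97 CPM in WT GFP-low libraries. KO libraries of Sec24a were at 18.3, 13.5, 14.8, 13.3 and 11.02 CPM in GFP-high and 25.1, 21.4, 23.1, 20.2 and 22.1 CPM in GFP-low cells. The groups overlapped in neither genotype, and the changes were 0.997 ± 0.13 and 0.67 ± 0.13. Sec24c changed by 0.54 ± 0.09 and 0.45 ± 0.10.

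Sec24b was the only member that passed as lower. In KO mice it was at 20.6, 18.03, 23.5, 21.4 and 19.8 CPM in GFP-high and 17.5, 15.5, 16.5, 16.2 and 18.1 CPM in GFP-low cells, and the groups overlapped by a narrow margin, a change of -0.29 ± 0.10 (adjusted p = 0.028). It did not pass when the GFP-high library was left out for KO mouse 4 (-0.25, adjusted p = 0.0621) or 5 (-0.28, adjusted p = 0.0584) or the GFP-low library for KO mouse 3 (-0.26, adjusted p = 0.0665). In WT mice Sec24b was at 16.5, 16.3, 23.7, 19.2 and 20.4 and 18.02, 15.3, 19.7, 18.6 and 15.3 CPM, with a change of -0.14 ± 0.13 (adjusted p = 0.399). The shares of the 4 adaptors were compared too, and none of these tests passed after adjustment. Per unit of transcript length, Sec24d made up 6.42% ± 1.45 of their sum in WT GFP-high and 19.4% ± 3.56 in WT GFP-low libraries, and 4.19% ± 1.16 and 19.0% ± 3.88 in KO mice. The share of Sec24b was 16.5% ± 2.35 and 9.08% ± 1.17 in WT and 17.9% ± 1.75 and 9.54% ± 0.334 in KO mice (n = 5 each). Each of these 4 differences had an exact permutation p of 0.00794, adjusted to 0.0529. Sec24c made up 65.7% ± 1.38 and 57.7% ± 2.04 in WT (p = 0.00794, adjusted p = 0.0529, same exact test) and 65.9% ± 2.39 and 58.9% ± 3.69 in KO mice (exact p = 0.0159, adjusted p = 0.0707). The share of Sec24a was 11.3% ± 0.665 and 13.8% ± 3.33 in WT (exact p = 0.135) and 12.1% ± 1.74 and 12.6% ± 0.86 in KO mice (exact p = 0.571).

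The inner coat partner Sec23a was at 10.04, 6.88, 9.09, 8.18 and 7.102 CPM in WT GFP-high and 17.7, 24.2, 26.02, 14.8 and 16.6 CPM in WT GFP-low libraries. KO libraries of Sec23a were at 8.27, 6.75, 6.89, 9.28 and 7.85 CPM in GFP-high and 23.1, 12.9, 19.6, 14.7 and 13.4 CPM in GFP-low cells, without overlap in either genotype. It changed by 1.27 ± 0.18 and 1.11 ± 0.17, and its relative Sec23b by 0.93 ± 0.17 and 1.18 ± 0.11. Sec13 and Sec31a of the outer coat changed by 0.77 ± 0.11 and 0.52 ± 0.11 in WT mice, Sec16a, which marks ER exit sites, by 0.82 ± 0.13, and the vesicle fusion protein Sec22b by 0.87 ± 0.12. Other genes of the same pathway mostly moved in the same direction in WT mice, with smaller medians. For the lists named next, in that order, the median log2 fold changes in WT mice were 0.61, 0.48, 0.41 and 0.76. The median of the 51 members was 0.88. Over all genes tested, 22% passed as higher in WT and 26.2% in KO mice. From lists of further genes, 20 of 30 of the unfolded protein response and degradation, 17 of 28 of folding, 21 of 31 of translocation and glycosylation and 40 of 44 of transport passed as higher, with 0, 1, 0 and 1 lower, and in KO mice 21, 17, 23 and 37, with 0, 1, 1 and 1 lower. With the smallest p among them were Selenos (1.44 ± 0.15), Creb3 (0.85 ± 0.11) and Edem2 (1.44 ± 0.21), P4hb (1.44 ± 0.14), Erp44 (1.04 ± 0.11) and Agr2 (2.66 ± 0.33), Ostc (0.88 ± 0.11), Srpr (0.87 ± 0.13) and Tram1 (1.20 ± 0.20), and Surf4 (1.02 ± 0.11) and Yif1a (0.92 ± 0.10), all as log2 fold changes ± SE. Erp44 was on both the folding and the transport list, and Agr2 was on the folding list and also among the goblet cell markers below. Lower in WT mice were Agr3 (-1.86 ± 0.15), a relative of Agr2, and Copg2 (-0.32 ± 0.11) of the COPI coat.

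Markers of the differentiated cell types of the epithelium, secretory and absorptive, moved with the same contrast. All 10 Paneth cell markers passed as higher in GFP-low cells in both genotypes, and their sum was 3.87% ± 2.06 (range 1.66% to 6.45%) in WT GFP-high, 12.3% ± 5.75 (5.76% to 18.5%) in WT GFP-low, 3.53% ± 1.14 (2.06% to 4.83%) in KO GFP-high and 8.28% ± 3.43 (2.65% to 11.4%) in KO GFP-low libraries. All 9 goblet cell markers passed as higher too, and their sum went from 0.400% ± 0.147 (0.226% to 0.554%) to 3.42% ± 1.19 (2.07% to 5.07%) in WT and from 0.262% ± 0.0914 (0.208% to 0.423%) to 3.48% ± 0.761 (2.57% to 4.66%) in KO mice. No marker of either list was at 0 in a group. Absorptive enterocyte markers passed as higher in 7 of 7 tested in both genotypes, with medians of 3.802 and 3.19 on the log2 scale, beside 2.21 and 1.56 for Paneth and 3.22 and 3.71 for goblet markers. The enterocyte sum was 0.0290% ± 0.00530 (0.0230% to 0.0345%) and 0.231% ± 0.0656 (0.139% to 0.312%) in WT and 0.0278% ± 0.0134 (0.0197% to 0.0514%) and 0.158% ± 0.0555 (0.118% to 0.251%) in KO mice, over 7 genes in GFP-high and 9 in GFP-low cells. Enteroendocrine markers passed in 8 of 8, with medians of 2.80 and 3.42 and sums of 0.0306% ± 0.0181 (0.0143% to 0.0604%) and 0.151% ± 0.0529 (0.0796% to 0.198%) in WT and 0.0153% ± 0.00314 (0.0136% to 0.0209%) and 0.146% ± 0.0499 (0.103% to 0.202%) in KO mice. Tuft cell markers passed in 5 of 5 in WT and 4 of 5 in KO mice, with medians of 1.78 and 2.04, and their sum stayed at or below 0.00954% in every library. The enteroendocrine sums were over 8 genes in GFP-high and 9 in GFP-low cells, and the tuft sums over 5 and 6. The GFP-low libraries of WT mice 3 and 8 had the highest Paneth sums, 18.5% and 18.2%. Without them, an alternative chosen after seeing the data, 42 members passed as higher in WT mice and 0 as lower, with a median of 0.79; Ern1, Pdia4 and Sec61g no longer passed (adjusted p = 0.0531, 0.0577 and 0.0533). The part of these cells in the change of the members was not tested.

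The change also depended in size on the scaling. Scaled by totals only, all genes had a median of -0.37 in WT and -0.27 in KO mice, and genes passed as 1188 higher against 4895 lower in WT and 1778 against 4738 in KO mice, where TMM gave 2479 against 2422 and 2956 against 2751. Members passing as higher then numbered 31 in WT and 44 in KO mice, with medians of 0.51 and 0.67 that stand 0.879 and 0.935 above the median of all genes. Sec24b then passed as lower in WT mice (-0.48, adjusted p = 0.0377), and Sec62, Sec11a and, in KO mice, Sec63 turned to values below 0 that did not pass.

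For a few members the mouse mattered as much as the population. Ssr1, the alpha subunit of the translocon-associated protein complex, was at 209.9, 97.04, 86.00, 244 and 404 CPM in the GFP-high libraries of WT mice 1, 3, 6, 7 and 8 and at 401, 136, 126, 433 and 899 CPM in their GFP-low libraries. In mice 2 to 6 of the KO genotype it was at 85.7, 89.1, 87.2, 77.95 and 76.3 and 121, 144, 148, 133 and 132 CPM. WT mice 1, 7 and 8 were thus high in both populations, while WT mice 3 and 6 lay near the KO mice. The SD of log2 levels was 0.94 and 1.20 in the WT groups against 0.10 and 0.12 in the KO groups, and 292 of 11296 genes had a larger SD pooled over the 4 groups. The change between populations was 0.94 ± 0.54 (adjusted p = 0.176) in WT mice without a block and 0.79 (adjusted p = 0.000136) with the mouse as a block, and 0.72 ± 0.09 in KO mice.

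Canx (calnexin), the membrane-bound lectin chaperone, was at 668, 1254, 666, 859.9 and 711 CPM in WT GFP-high and 893, 2231, 856, 1206 and 1080 CPM in WT GFP-low libraries. KO libraries of Canx were at 427, 335, 391, 342 and 783 and 536, 445, 538, 409 and 978 CPM. WT mouse 3 and KO mouse 6 stood above the rest of their groups in both populations. The change was 0.59 ± 0.27 (adjusted p = 0.0889) in WT and 0.36 ± 0.26 (adjusted p = 0.266) in KO mice without a block, and 0.54 (adjusted p = 0.00122) and 0.37 (adjusted p = 0.00111) with it, and Canx was higher in GFP-low cells in 10 of 10 mice. With the block 48 members in WT and 47 in KO mice passed as higher, out of 5845 and 6464 genes called. The median pooled SD of log2 levels was 0.238 over the members and 0.235 over all genes. That SD measures the spread within groups and not whether both libraries of a mouse lay high.

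**Figure D4:**
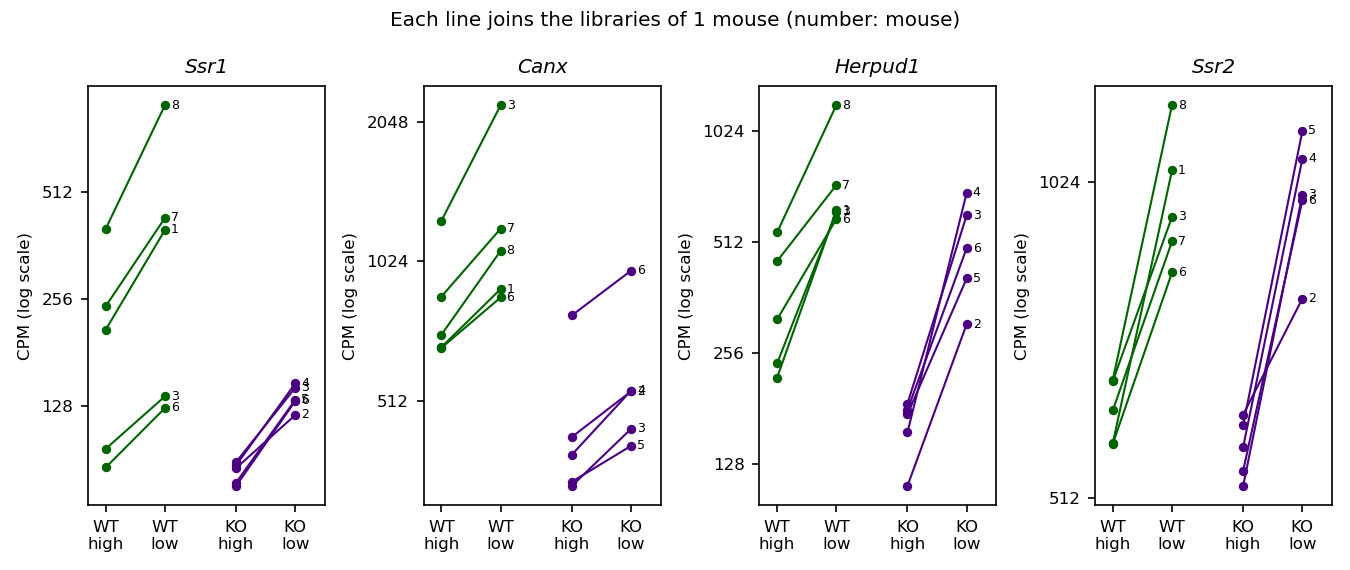
Levels of Ssr1, Canx, Herpud1 and Ssr2 in CPM (y axes, log scale), with each line joining the GFP-high and GFP-low libraries of 1 mouse, WT in green and KO in purple, numbered by mouse. WT mice 1, 7 and 8 lie apart for Ssr1 and WT mouse 3 and KO mouse 6 for Canx, in both populations, while the lines of Ssr2, another subunit of the Ssr1 complex, do not set WT mice 1, 7 and 8 apart.

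Loss of Itgb7 was compared next, within each population. In GFP-high cells none of the 51 members passed, and neither did any of the 11745 genes tested (0%). At an unadjusted p under 0.05 there were 8 members (15.7%) against 9.79% of all genes. The values of 40 members (78.4%) were below 0 in KO mice against 48.6% of all genes. No test compared these shares. The median of the members was -0.11, beside 0.01 over all genes. Members with the smallest p were Manf, Herpud1, Hspa5, Ssr1 and Canx. Hspa5 was at 529.9, 552, 558, 475 and 488 CPM in WT and 436, 412, 392, 350.3 and 356 CPM in KO GFP-high libraries, so that every KO library lay below every WT library. The difference was -0.41 ± 0.09 (adjusted p = 0.167). For Manf, whose libraries are given above, the difference was -0.70 ± 0.14 (adjusted p = 0.163), and for Herpud1 -1.13 ± 0.23 (adjusted p = 0.163). These 3 members, 5.88% of the 51, were the ones with no overlap, against 0.93% of all genes, and all lay lower in KO mice.

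Another test of the same counts gave calls in GFP-high cells. DESeq2 called Manf (adjusted p = 0.00119), Hspa5 (0.00195) and Herpud1 (0.014) lower, among 143 genes. A fit with the mouse number as a block called Manf (adjusted p = 0.013) among 122 genes. WT and KO share only the numbers 3 and 6, and there in different mice. The genotype effect of that fit rests on the libraries with these numbers alone, so its calls do not test the genotype over all libraries. Ssr1 differed by -1.32 ± 0.33 (adjusted p = 0.184) and Canx by -0.86 ± 0.24 (adjusted p = 0.21), and both overlapped between genotypes, through WT mouse 6 for Ssr1 and KO mouse 6 for Canx. By role, the median difference was -0.19 for the sensors and factors, -0.09 for the chaperones, -0.16 for degradation, -0.09 for translocation and processing and -0.03 for the coat. Of the cell type markers in GFP-high cells none passed, and their median difference was -0.98 for 8 enteroendocrine, -0.63 for 9 goblet, -0.62 for 5 tuft, -0.14 for 10 Paneth and -0.07 for 7 enterocyte markers. The sum of enteroendocrine markers was 0.0306% in WT and 0.0153% in KO libraries. The part of such cells in the members' values was not tested.

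In GFP-low cells none of the 51 members passed, where 1 of 11778 genes did (0.00849%), Arhgef10 at -2.30 ± 0.21 (adjusted p = 0.00069), which is no member and was chosen after its value was seen. At an unadjusted p under 0.05 there were 5 members (9.8%) against 6.32% of all genes. They were Canx (-1.11 ± 0.29, adjusted p = 0.731), Ssr1 (-1.55 ± 0.43, adjusted p = 0.731), Dnajb9 (-0.66 ± 0.24), Sec22b (-0.35 ± 0.13) and Herpud1 (-0.58 ± 0.24), the last 3 with adjusted p = 0.745, 0.745 and 0.759. Sec22b was at 144, 205, 154, 179 and 225 CPM in WT and 133, 139.7, 160.2, 124 and 152 CPM in KO GFP-low libraries, which overlapped. Values below 0 were seen for 40 members (78.4%) against 50.8% of all genes, with a median of -0.09. That median did not keep its sign: it was 0.00 without the GFP-low libraries of WT mice 3 and 8, and 0.08 with library totals alone, where all genes had a median of 0.14. Of the cell type markers in GFP-low cells none passed either, with medians of -0.70 for enterocyte, -0.63 for Paneth, -0.34 for tuft, -0.11 for enteroendocrine and 0.06 for goblet markers, and their part in the members' values was not tested. Hspa5, at 1283 ± 234 CPM in the WT libraries and 1082 ± 204 CPM in KO mice, differed by -0.24 ± 0.16 (adjusted p = 0.848), and Manf by -0.28 ± 0.21 (adjusted p = 0.867).

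**Figure D5:**
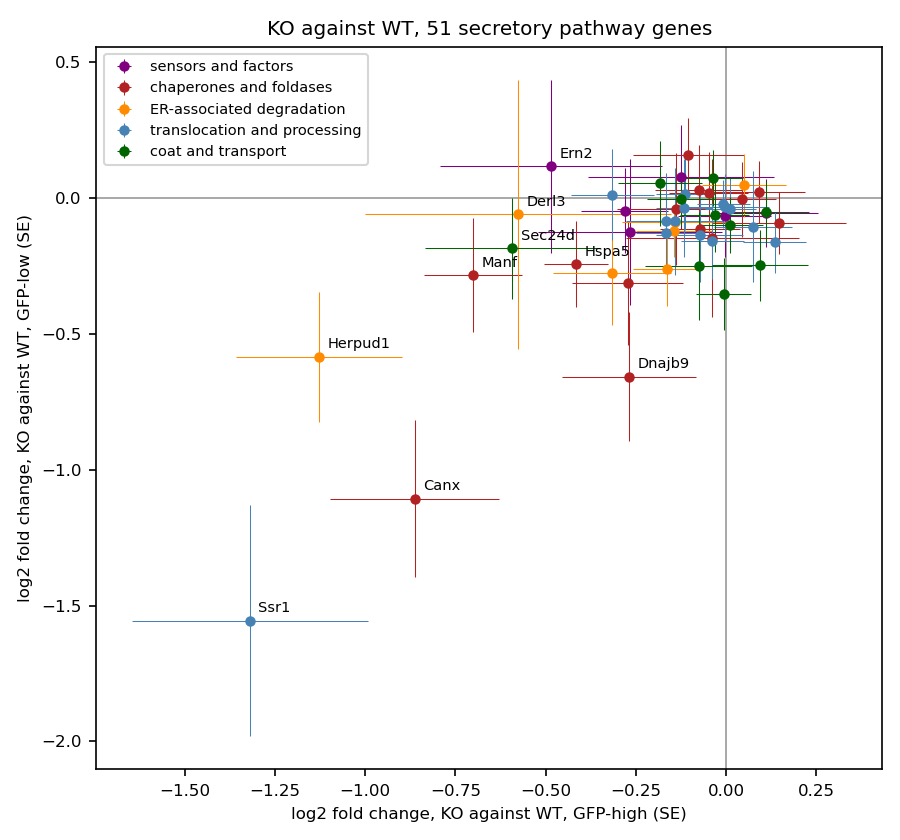
Log2 fold change of KO against WT in GFP-high cells (x axis) and in GFP-low cells (y axis) for the 51 members, coloured by role, with SE bars. Most members lie within 0.3 of 0 on both axes; Ssr1, Canx and Herpud1 lie apart, and none passed the test.

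Whether the effect of the genotype differed between the populations was tested as an interaction over all 20 libraries. This fit took the GFP-high and GFP-low libraries of a mouse as independent. None of the 51 members passed, nor any of 11296 genes (0%), and 2 members had an unadjusted p under 0.05 (3.92%) against 3.12% of all genes. Members with the smallest p were Sec22b (-0.34 ± 0.15), Sec63 (-0.29 ± 0.14), Sec24a (-0.34 ± 0.18), Spcs3 (0.33 ± 0.21) and Manf (0.42 ± 0.27), each with adjusted p = 0.9999. The value is the change between populations in KO mice less that in WT mice on the log2 scale, so the rise in GFP-low cells was smaller in KO mice for the first 3 and larger for Spcs3 and Manf, within the error of the test. For Sec63 the WT libraries were at 54.4, 53.2, 42.4, 53.3 and 52.1 CPM in GFP-high and 58.6, 83.02, 65.2, 68.3 and 73.6 CPM in GFP-low cells, and the KO libraries at 55.1, 54.8, 57.6, 60.9 and 51.2 and 60.6, 62.8, 71.6, 55.98 and 60.4 CPM. The member median of the difference was 0.00. With the mouse as a block it was 0.035, and 0 genes passed.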

How the data were processed

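RNA was sequenced from 20 libraries, 5 in each of 4 groups set by the genotype and population in the labels. The deposited tables, 1 for each population, hold expected counts, that is, read numbers estimated for each gene by the authors. The build mm10 and the tools RSEM, TopHat2 and Bowtie2 are named by the submitters' processing notes, and their versions are not stated there. RSEM shares reads between near-identical genes. Of 510 member values in each table, 21 and 25 were not whole, all in Derl2, Sec61b, Spcs1 and Ssr2, and were rounded. The lowest mean count of any gene entry was 17.0 and 16.8, so scarcer genes are not analysed here.

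Groups were compared in R 4.3.3 with edgeR 4.0.16, by its quasi-likelihood test on the rounded counts, with TMM factors, filterByExpr at a minimum count of 10 and Benjamini-Hochberg adjustment over all genes tested, called at 0.05. All 51 members passed the filter in each of the 5 comparisons. Each fit held only the groups compared, except the interaction over all libraries. SEs came from the F statistic. The script was tested on simulated counts. Levels are CPM with TMM factors over all libraries, divided by transcript length (median of the coding transcripts in GENCODE M21, GRCm38) where genes are compared. Shares within families were compared by exact two-sided permutation. Alternatives were DESeq2 1.42.0, other scalings, no filter, the mouse number as a block and leaving out each library.

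Libraries of the same mouse deviated together. For GFP-high and GFP-low libraries of 1 mouse the correlation of deviations over genes was 0.169 to 0.625 in WT and 0.201 to 0.436 in KO mice. Between different mice of a genotype it was -0.4 to 0.151 in WT and -0.395 to 0.175 in KO mice, so the 2 ranges overlapped slightly. For each mouse the value with its own number was the highest, and the number was taken to pair the populations within a genotype. Numbers 3 and 6 occur in both genotypes in different mice, with -0.105 to -0.0764 between them.

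The members and gene lists were chosen with earlier results of these data known. Text values follow rules by role: every library for the sensors and for the 3 members of each other role with the largest change in WT mice, and the 5 smallest p where none passed. The retrieval signals of the proteins are not analysed here.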

Additional observations from a re-analysis of the deposited data

Results flagged for a closer look

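In 26 of 204 groups of 5 libraries, 1 for each member and group, the highest or lowest library stood apart by Dixon's test on CPM. For normally distributed values chance alone gives about 1 in 20, and members of 1 library are not independent. The test was not run on the other genes, so whether members differ from them in this is not known. The GFP-low library of WT mouse 8, which also held the second highest Paneth marker sum at 18.2%, was the high one for 7 members: Manf at 399 CPM (others 174 to 204 CPM), Sdf2l1 at 36.02 CPM (10.3 to 16.1), Herpud1 at 1205 CPM (592 to 731), Edem1 at 70.8 CPM (36.6 to 40.99), Sel1l at 79.1 CPM (53.6 to 59.7), Sec61b at 456.9 CPM (285 to 309.9) and Ssr4 at 881 CPM (482 to 573). The TMM factor of this library was 0.7294, the lowest of all libraries. The GFP-low library of WT mouse 3 had a Paneth sum of 18.5% and a TMM factor of 0.7296. It held Manf at 178 CPM, Sdf2l1 at 11.6 CPM and Edem1 at 40.99 CPM. The goblet marker sum was 5.07% in the GFP-low library of WT mouse 8, the highest of all libraries, and 2.07% in that of WT mouse 3. The part of the scaling and of Paneth and goblet cells in these values was not tested. The GFP-high library of WT mouse 8 was high for Derl3, at 2.47 CPM.

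Canx was high in both libraries of KO mouse 6, at 783 CPM in GFP-high and 978 CPM in GFP-low cells, and in the GFP-low library of WT mouse 3, at 2231 CPM. Sec11a had a library apart in 3 groups: it was low in WT GFP-high mouse 1 at 223 CPM and high in KO GFP-high mouse 2 at 265 CPM and KO GFP-low mouse 4 at 295 CPM. In the GFP-high library of WT mouse 6, Pdia3 was low at 38.03 CPM, Pdia4 at 57.9 CPM and Sec63 at 42.4 CPM. Other WT libraries apart were Hyou1 at 18.6 CPM in GFP-high mouse 1, Sec13 at 441 CPM in GFP-high mouse 3, and, as low values, Syvn1 at 25.8 CPM in GFP-high mouse 7 and Atf4 at 341 CPM in GFP-low mouse 7. In KO mouse 2, Derl2 was high at 49.98 CPM in GFP-high cells, and Pdia6 was low at 476 CPM and Sec24d at 17.5 CPM in GFP-low cells. In KO mouse 4, Sel1l was high at 36.4 CPM in GFP-high and Ddit3 at 67.7 CPM in GFP-low cells.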

How the results depend on the processing

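Counts of members higher in GFP-low cells kept their direction under every alternative run, from 31 to 48 in WT and 44 to 47 in KO mice, the lower ends with library totals alone. That scaling gave 1 member lower in WT mice and turned Sec62 (-0.068 in WT, -0.061 in KO), Sec11a (-0.21, -0.10) and Sec63 in KO mice (-0.091) below 0. DESeq2 called 143 genes, 3 of them members, between the genotypes in GFP-high cells and 12 genes in GFP-low cells. With a replicate block of the mouse number these were 122 genes with 1 member and 36 genes, and Ssr1 in GFP-low cells turned to 0.080. WT and KO mice share only 2 numbers, in different mice, so this block does not pair them. Its genotype effect rests on the libraries with those 2 numbers alone. The block by mouse made 48 members in WT and 47 in KO mice higher and changed no call except those of Canx, Derl3 and Ssr1. Leaving out each library in turn, members lower in KO mice ranged from 0 to 1, genes called for KO against WT from 0 to 1 in GFP-high (1 without KO mouse 2) and from 1 to 2 in GFP-low cells (2 without KO mouse 4), and members higher in GFP-low cells from 45 to 47 in WT and 46 to 47 in KO mice. Derl3 passed in WT mice when mouse 8 was left out of GFP-high or mouse 3 or 6 out of GFP-low cells, Canx without the GFP-high library of WT mouse 3 or KO mouse 6, and Sec62 without the GFP-low library of WT mouse 1 or 6 or KO mouse 2. Tables were deposited separately per population, and levels between them rest on TMM scaling.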

Other observations

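Per kilobase of transcript, the members spanned a wide range of levels in WT GFP-high cells, from 0.465 CPM for Ern1 to 552 CPM for Ssr2, and in WT GFP-low cells from 0.842 CPM for Ern1 to 881 CPM for Ssr2. The next highest in GFP-low cells were Ssr4 at 762 CPM, Sec61b at 580.5 CPM and Sec13 at 468 CPM per kilobase. Hspa5, at 166 CPM per kilobase in GFP-high cells, was at 408 CPM in GFP-low cells, above Herpud1 at 386 CPM and Canx at 311 CPM, both of which lay above it in GFP-high cells at 182 and 206 CPM. The spread over libraries of Canx and Herpud1 exceeds these gaps, so the order of the 3 is a description of the means.

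Outside the 51 members, 3 genes were chosen after their values were seen, for large changes between the populations. The choice is not a ranking by size. Chac1, for example, went from 4.39 ± 3.31 (SD, n = 5) to 26.15 ± 15.05 CPM in WT mice. In KO mice it went from 1.76 ± 0.796 to 12.15 ± 3.85 CPM. Kdelr3, a receptor that returns ER proteins from the Golgi, changed by 2.78 ± 0.33 (log2, SE) in WT and 3.13 ± 0.31 in KO mice. Creb3l3 and Creb3l1, membrane-bound transcription factors of the Atf6 kind, changed by 2.38 ± 0.53 and 1.61 ± 0.30 in WT and by 2.51 ± 0.22 and 2.10 ± 0.22 in KO mice. For Ern2 these values were 2.13 ± 0.35 and 2.75 ± 0.31.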
